A study of Mus musculus with 4 samples.

Results

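The 10 genes described here encode inflammatory mediators and their regulators, namely Nos2, Il33, Il1b, Cxcl10, Ccr7, Ccl2, Cxcl1, Ptgs2, Nfkbia and Gpr35. They were taken by symbol from the 22328 genes that both deposited tables list, and all 10 were found in each. They had been chosen by their measured values in the comparison of choline-rich with control HT22 cells, so those values are a description and support nothing. All 10 reached 50 reads in at least 1 HT22 library, the minimum used here for a measured gene, while 3 of 10 did so in the hippocampus. Il1b, Cxcl10, Ccr7 and Gpr35 reached it only in HT22 CON, the library where they were higher, so the minimum itself favoured that direction for them.

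The study measured poly(A)-selected RNA in 4 mouse libraries. F1m-GCS is the hippocampus of offspring of dams given feed with 5 g/kg choline chloride between embryonic day 9 and birth. F1m-CON is that of offspring of dams given 1.1 g/kg. All offspring had the basal diet after birth, and their age at the behaviour tests was 2 months. How many animals each library holds, and of which strain, was not given in the sources used here. Groups HT22 SUP and HT22 CON are cultures of HT22, an immortalised mouse hippocampal cell line, kept for 48 h in 70 µM and 5 µM choline chloride, both in high-glucose medium with serum. Reads counted in genes numbered 30265820 in F1m-GCS, 31175015 in F1m-CON, 13192007 in HT22 SUP and 18305096 in HT22 CON. They were 79.0%, 79.4%, 63.1% and 72.9% of the uniquely mapped reads, in the same order. With 1 library per group, differences have neither a replicate check nor a p-value. The range in brackets after a log2 ratio is its 95% counting interval, which covers counting error only. A gene was counted as higher or lower when it differed at least 1.5-fold with an interval that excluded 0.

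Most of these genes belong to a shared circuit. Interleukin 1 and bacterial products act through receptors that release the transcription factor NF-kappaB from its inhibitor, IkappaB-alpha, the product of Nfkbia. NF-kappaB then raises transcription of cytokines, of chemokines that recruit leukocytes, of the inducible enzymes that make nitric oxide and prostaglandins, and of Nfkbia itself, which closes the loop. In brain, microglia and astrocytes are known as main sources of most of these mediators, and neurons make some of them.

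Marker lists of other cell types were read in all 4 libraries. The 15 microglia markers summed to 96.2 CPM (reads per 1000000 reads in genes) in HT22 SUP and 100 CPM in HT22 CON, beside 459 CPM in F1m-GCS and 498 CPM in F1m-CON. In the cultures most of that was Tmem119, with 875 reads in HT22 SUP and 1262 in HT22 CON, then Trem2 with 199 and 355 and Cd68 with 120 and 171. The signalling adaptor gene Tyrobp had 0 reads in both cultures. A list of 19 macrophage, dendritic and lymphoid markers summed to 42.3 CPM in HT22 SUP and 44.1 CPM in HT22 CON, above the 29.4 CPM of F1m-GCS and 34.4 CPM of F1m-CON. In the cultures this was chiefly Cd14, and 10 of the genes, Emr1, H2-Aa, H2-Ab1 and Cd3e among them, had 0 reads in both. Neuron markers summed to 401 CPM in HT22 SUP and 318 CPM in HT22 CON, far below the 12134 CPM of F1m-GCS and 12162 CPM of F1m-CON. The neuronal nuclear gene Rbfox3, named with Trem2, Cd68, Tubb3 and Gja1 after their values were seen, had 33 reads in HT22 SUP and 15 in HT22 CON. Eno2, the neuron marker with most reads in the cultures, had 2370 and 4042, and Tubb3 had 147 and 317. Each other neuron marker of the list had more reads in HT22 SUP, the smaller library, as Camk2a with 898 and 464. The neuron sum thus joins shifts in opposite directions. Fibroblast markers had 7424 CPM in HT22 SUP and 8213 CPM in HT22 CON, beside 813 CPM in F1m-GCS and 797 CPM in F1m-CON. In the hippocampus Thy1 alone had 16595 of the 24522 reads of that list in F1m-GCS and 17477 of 24938 in F1m-CON. It had 1362 reads in HT22 SUP and 2124 in HT22 CON. Endothelial markers had 5.02 CPM in HT22 SUP and 1.31 CPM in HT22 CON, and oligodendrocyte markers 22.1 and 10.9 CPM. Astrocyte markers had 388 CPM in HT22 SUP and 344 CPM in HT22 CON. Among them Slc1a2 had more reads in HT22 SUP, 1554 against 903 in HT22 CON. Slc1a3, with 1960 and 3278, and Gja1, with 1358 and 1991, had fewer. Any part of these shifts in the results below was not tested. In bulk libraries fewer cells of a type and less RNA per cell cannot be told apart.

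In HT22 cells 6 of the 10 genes were lower in SUP than in CON by the 1.5-fold rule, and 0 were higher. The background was 2.89% of 10854 measured genes lower and 5.13% higher, and nothing is read from the members' count, since the genes were chosen in this contrast. The 6 were Gpr35, Ccr7, Nos2, Il1b, Il33 and Cxcl10, each at least 2-fold lower, beside 0.525% of measured genes lower and 2.22% higher by that stricter fold. The other 4, Nfkbia, Ccl2, Cxcl1 and Ptgs2, stayed within 1.5-fold. Of these Nfkbia, Ccl2 and Cxcl1 lay below 0 on the log2 scale and Ptgs2 above it, so the description of all 10 as lower does not hold for Ptgs2. The 6 lower genes had between 52 and 271 reads in HT22 CON, while the 4 others had between 2435 and 11824. Genes of like level passed the rule more often, but at the lowest levels the read minimum itself favoured such calls. There a gene reached the minimum only if its libraries differed. How far this raised the shares that follow was not tested. Of 1427 measured genes with a mean between 1.72 and 9.92 CPM, the range of the 6, 13.9% were lower and 19.3% higher by the same rule.

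**Figure D1:**
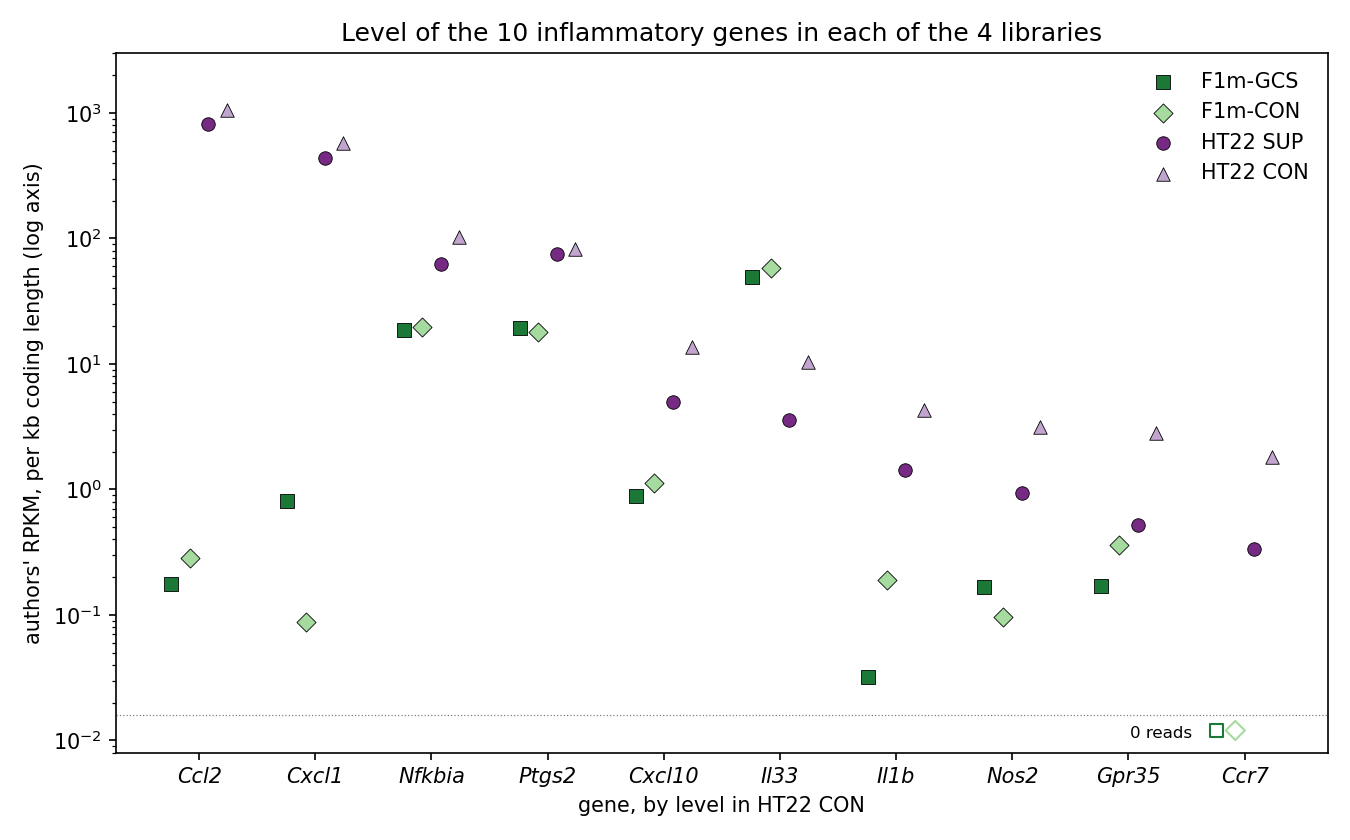
Level of each of the 10 genes in the 4 libraries, as the authors' RPKM per kilobase of coding length on a log axis, with 1 point per library and genes ordered by level in HT22 CON. RPKM is per uniquely mapped read, of which a smaller share lay in genes in HT22 SUP than in HT22 CON. Ccl2 and Cxcl1 lie highest in the cultures and near the bottom in the hippocampus, Il33 lies higher in the hippocampus than in the cultures, and open symbols mark 0 reads.

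Among the secreted cytokines, Il33 encodes an alarmin of the interleukin 1 family that is stored in the nucleus and released from damaged cells. The gene (ENSMUSG00000024810) lies on chromosome 19 from 29925114 to 29960718 on the plus strand of mm10. It had 60 reads in HT22 SUP and 208 in HT22 CON, or 4.57 and 11.3 CPM. That is 2.44-fold lower, with a log2 ratio of -1.29 (-1.75 to -0.89). Il1b encodes interleukin 1 beta, the cytokine that inflammasomes cut and activate. On chromosome 2 from 129364570 to 129371139, minus strand (ENSMUSG00000027398), it had 24 reads in HT22 SUP and 88 in HT22 CON, 2.52-fold lower at -1.33 (-2.11 to -0.73). An antisense gene, Il1bos, shares 25 of its 1907 exon bases in GENCODE M21. The sources used here do not say whether counting used strand, so reads there cannot be told apart.

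The 3 chemokine genes split. Cxcl10 encodes a chemokine induced by interferon that attracts T cells. It lies on chromosome 5 from 92346638 to 92348889, minus strand (ENSMUSG00000034855), and had 31 reads in HT22 SUP and 101 in HT22 CON, or 2.36 and 5.50 CPM. Its log2 ratio was -1.18 (-1.85 to -0.63), 2.26-fold lower. Of its 2252 exon bases, 133 overlap Art3 on the other strand. Ccl2, which encodes a monocyte chemoattractant, was the most abundant of the 10 per length, with 7590 reads in HT22 SUP and 11824 in HT22 CON. On the authors' RPKM scale it reached 812 in HT22 SUP and 1053 in HT22 CON. RPKM divides by uniquely mapped reads, of which a smaller share lay in genes in HT22 SUP. It therefore places HT22 SUP lower against HT22 CON than CPM does, for every gene. Ptgs2 had 75.7 and 82.9 RPKM but 219 and 206 CPM. Scaled to library size, Ccl2 had 578 CPM in HT22 SUP and 643 CPM in HT22 CON, with a log2 ratio of -0.16 (-0.20 to -0.11). Ccl2 (ENSMUSG00000035385) lies on chromosome 11 from 82035571 to 82037453, plus strand. Cxcl1 encodes a neutrophil attractant and lies on chromosome 5 from 90891241 to 90893115, plus strand (ENSMUSG00000029380). It had 2662 reads in HT22 SUP and 4210 in HT22 CON, or 203 and 229 CPM, with a log2 ratio of -0.18 (-0.25 to -0.11). The scarce chemokine gene was thus lower in SUP by the 1.5-fold rule, while the abundant pair stayed close to the CON level.

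Both receptor genes were close to the read minimum and had the lowest ratios. Ccr7 encodes the receptor that guides dendritic cells and T cells to lymph nodes, and Gpr35 a G protein-coupled receptor for which kynurenic acid has been proposed as a ligand. Ccr7 (ENSMUSG00000037944, chromosome 11 from 99144196 to 99155077, minus strand) had 8 reads in HT22 SUP and 52 in HT22 CON. Its log2 ratio was -2.01 (-3.50 to -1.13), 4.02-fold lower. Gpr35 (ENSMUSG00000026271, chromosome 1 from 92973119 to 92986391, plus strand) had 10 reads in HT22 SUP and 65 in HT22 CON, and -2.04 (-3.34 to -1.25). With 52 reads in its richer library, Ccr7 stood just inside the minimum of 50, and no member stood outside it. On the RPKM scale Ccr7 had 0.337 in HT22 SUP and 1.82 in HT22 CON, and Gpr35 had 0.518 and 2.80.

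The inducible enzymes also differed from each other. Nos2 encodes inducible nitric oxide synthase, which makes nitric oxide from arginine. The gene (ENSMUSG00000020826) lies on chromosome 11 from 78920787 to 78960254, plus strand, and had 67 reads in HT22 SUP and 271 in HT22 CON. These are 5.10 and 14.7 CPM, 2.85-fold lower, with a log2 ratio of -1.51 (-1.94 to -1.14). Ptgs2 encodes cyclooxygenase 2, the inducible enzyme that starts prostaglandin synthesis, and lies on chromosome 1 from 150100124 to 150108010, plus strand (ENSMUSG00000032487). It had 2871 reads in HT22 SUP and 3780 in HT22 CON, or 219 and 206 CPM, with a log2 ratio of 0.09 (0.02 to 0.16). Nfkbia, the NF-kappaB inhibitor gene (ENSMUSG00000021025, chromosome 12 from 55489411 to 55492647, minus strand), lay between these groups. Its 1230 reads in HT22 SUP and 2435 in HT22 CON gave 93.6 and 132 CPM and a log2 ratio of -0.50 (-0.60 to -0.40), 1.41-fold lower.

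**Figure D2:**
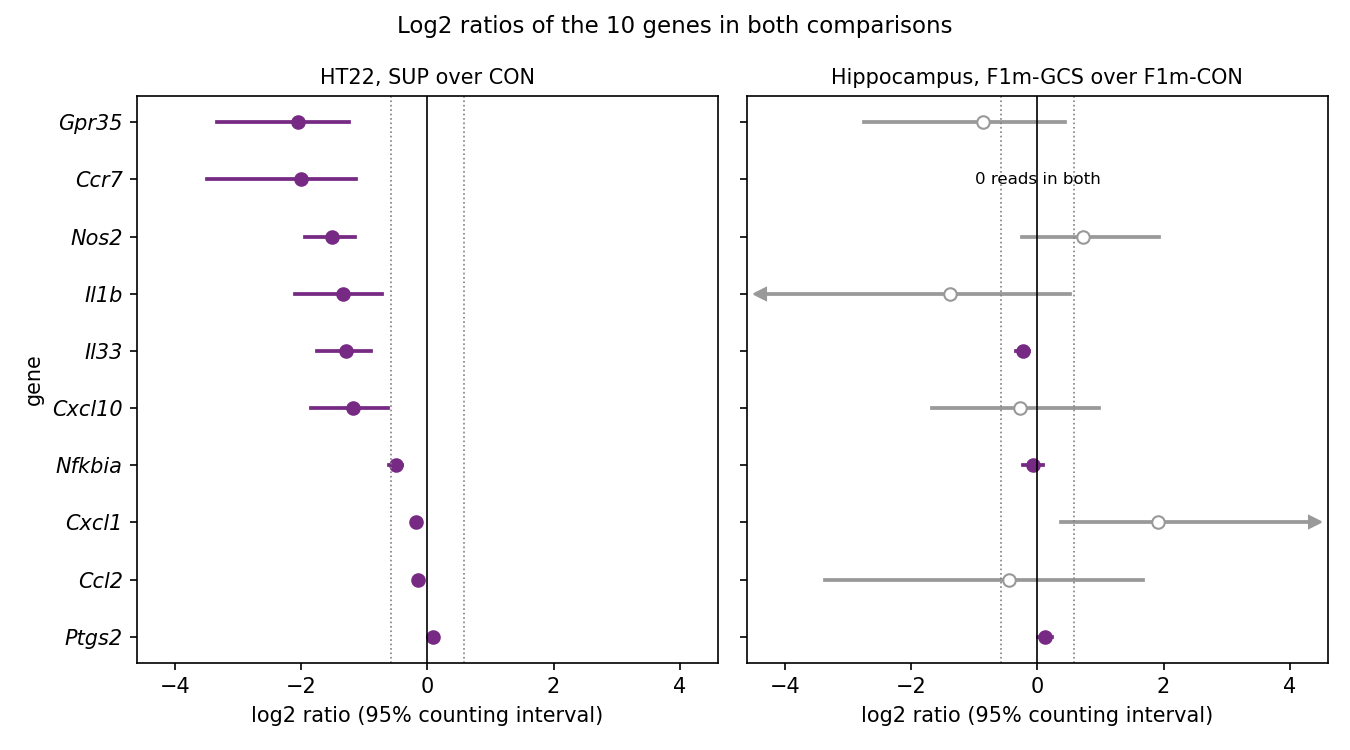
Log2 ratios of the 10 genes, HT22 SUP over HT22 CON at left and F1m-GCS over F1m-CON at right, with bars for 95% counting intervals, arrows where a bar runs off the axis and dotted lines at 1.5-fold. Filled points have at least 50 reads in 1 library, and the 6 lowest genes at left lie wholly beyond the 1.5-fold line.

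**Figure D3:**
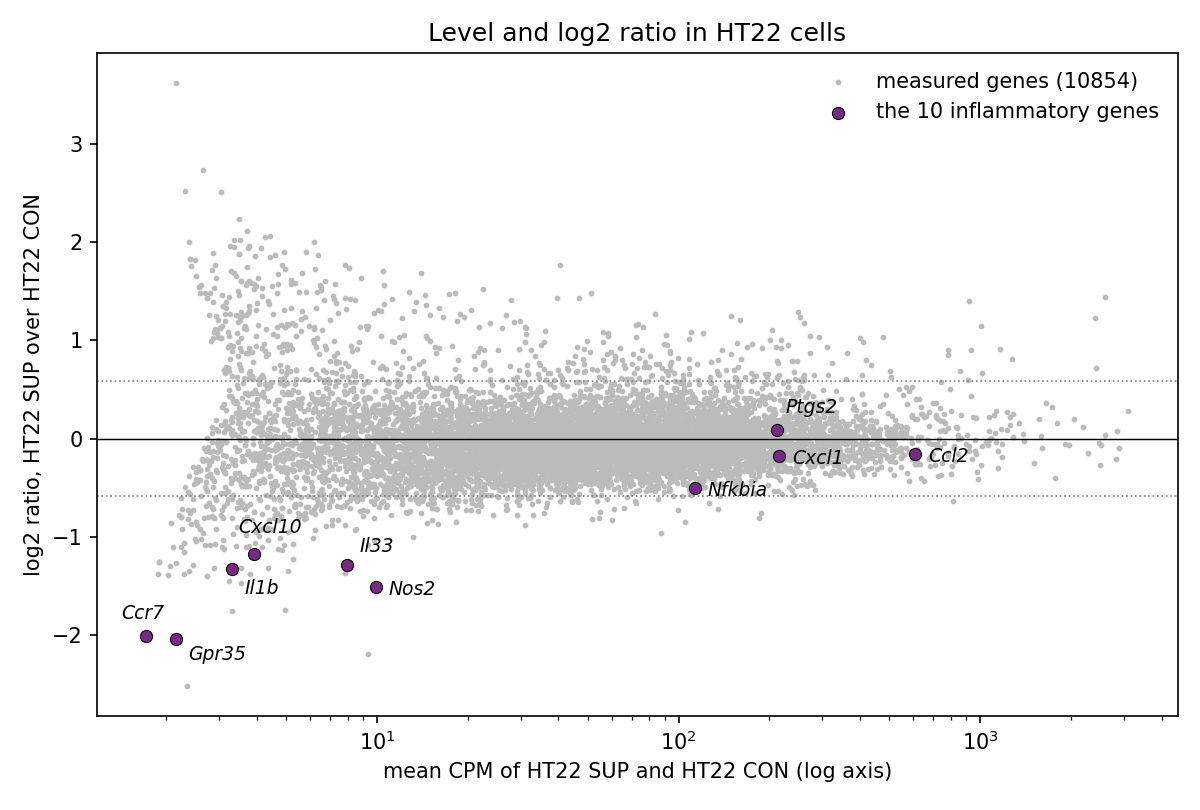
Mean CPM of both HT22 libraries on a log axis against the log2 ratio of SUP over CON, with the 10 genes in purple among all 10854 measured genes and dotted lines at 1.5-fold. The 6 lower genes lie below 10 CPM, where grey points spread most, and Nfkbia, Ptgs2, Cxcl1 and Ccl2 lie above 90 CPM.

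As a sum, the RNA of the 10 genes hardly followed the 6. All 10 together had 1108 CPM in HT22 SUP and 1253 CPM in HT22 CON. Ccl2 and Cxcl1 supplied 70.4% of these reads in HT22 SUP and 69.6% in HT22 CON. The 6 lower genes summed to 200 reads, or 15.2 CPM, in HT22 SUP and 785 reads, or 42.7 CPM, in HT22 CON. Their share of the members' reads was 1.37% in HT22 SUP and 3.41% in HT22 CON. The order of the genes by RPKM was nearly the same in both cultures, except that Ptgs2 stood above Nfkbia in HT22 SUP and below it in HT22 CON.

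Upstream sequence was read for 7 of the 10 genes that matched the RefSeq promoter table (GRCm38.p6, the assembly called mm10), as the 250 bases before the start nearest the deposited gene start. Nos2, Ccl2 and Ccr7 had no entry in it. The kappaB consensus, the site NF-kappaB binds, was searched on both strands. It occurred in 3 of the 7, Cxcl10, Cxcl1 and Nfkbia, and in 7.25% of all 32851 promoter windows of that length. These 3 are shown because they hold the motif, which is in capitals in each. They lie at chr5:92348890-92349139 on the minus strand for Cxcl10, chr5:90890995-90891244 on the plus strand for Cxcl1 and chr12:55492648-55492897 on the minus strand for Nfkbia, each written 5′ to 3′ toward the start.
Cxcl10: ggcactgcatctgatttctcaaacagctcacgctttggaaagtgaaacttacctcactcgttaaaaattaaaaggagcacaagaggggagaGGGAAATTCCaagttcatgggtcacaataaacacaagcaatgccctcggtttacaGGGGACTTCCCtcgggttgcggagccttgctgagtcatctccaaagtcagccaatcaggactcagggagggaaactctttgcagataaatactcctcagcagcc
Cxcl1: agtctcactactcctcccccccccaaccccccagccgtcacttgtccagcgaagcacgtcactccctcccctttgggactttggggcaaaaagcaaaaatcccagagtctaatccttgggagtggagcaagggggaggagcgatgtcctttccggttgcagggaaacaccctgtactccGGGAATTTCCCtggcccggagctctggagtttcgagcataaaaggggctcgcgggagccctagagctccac
Nfkbia: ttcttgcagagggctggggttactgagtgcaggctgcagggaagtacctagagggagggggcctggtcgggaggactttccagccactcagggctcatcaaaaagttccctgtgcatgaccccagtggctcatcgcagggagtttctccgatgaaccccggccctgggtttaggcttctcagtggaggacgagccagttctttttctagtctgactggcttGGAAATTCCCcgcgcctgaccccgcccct

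Cxcl10 held a match from -159 to -150 and overlapping matches from -104 to -94, counted from the base before the start. Cxcl1 held overlapping matches on both strands from -71 to -61, and Nfkbia a match on the minus strand from -29 to -20. A pair of TTTC with any 2 bases between, as in interferon response elements, occurred in Cxcl10 alone of the 7, from -213 to -204, and in 2.98% of all windows. TGANTCA, the AP-1 motif, also occurred only in Cxcl10, and in 6.75% of all. TATAAA occurred in Il1b, from -31 to -26, and in Il33, from -203 to -198, and in 12.4% of all windows. Il33 and Gpr35 each had another annotated start farther from the deposited one. There TATAAA lay from -29 to -24 for Il33, and TGANTCA from -184 to -178 for Gpr35. TTCNNNGAA, the core of STAT sites, occurred in 0 of the 7 and in 7.02% of all. A match is a stretch of letters and not a measured site, and no match says only that these letters are not in the window.

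In the hippocampus the prenatal diet was compared on genes that had not been chosen for it. Of the 3 measured members, Il33, Ptgs2 and Nfkbia, 0 were lower and 0 were higher by the 1.5-fold rule, against 0.904% lower and 1.8% higher among 13392 measured genes. By the 2-fold rule 0 members were lower or higher, against 0.172% and 0.224% of measured genes. Il33 had 1506 reads in F1m-GCS and 1839 in F1m-CON. Its log2 ratio was -0.23 (-0.33 to -0.13), at percentile 7.97 of measured genes. Ptgs2 had 1340 reads in F1m-GCS and 1278 in F1m-CON, with 0.12 (0.01 to 0.23) at percentile 77.3, and -0.04 (-0.15 to 0.07) once coding length and GC content were corrected for. Nfkbia had 674 reads in F1m-GCS and 734 in F1m-CON, with -0.07 (-0.22 to 0.08).

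The other 7 genes were too sparse in the hippocampus to compare. Nos2 had 22 reads in F1m-GCS and 13 in F1m-CON, and its log2 ratio of 0.73 had an interval from -0.24 to 1.92. Gpr35 had 6 and 13 reads, and Cxcl10 had 10 and 13, both with intervals that included 0. Il1b had 1 read in F1m-GCS and 6 in F1m-CON, a log2 ratio of -1.39 (-8.05 to 0.51), and Ccl2 had 3 and 5 reads, -0.45 (-3.37 to 1.68). Cxcl1 had 9 reads in F1m-GCS and 1 in F1m-CON, with 1.91 (0.37 to 8.68). Ratios on so few reads depend on the prior count of 2 that was added. Ccr7 had 0 reads in both, which allows up to 0.0995 CPM in F1m-GCS and 0.0958 CPM in F1m-CON, taking 3 reads as the limit. Cxcl1 apart, whose interval lay above 0 on 10 reads in all, differences in these genes were not detectable at this depth.

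The 3 members measured in the hippocampus were also measured in HT22, and levels differed between tissue and line. For Ccl2 the CPM of the lower HT22 library was 3616 times that of the higher hippocampus library. For Cxcl1 that ratio was 679. Nos2 was 6.99-fold, Il1b 9.53-fold, Cxcl10 5.68-fold, Ptgs2 4.63-fold, Nfkbia 3.99-fold and Gpr35 1.83-fold higher in HT22 by the same measure. Il33 went the other way, with 4.41-fold between the lower hippocampus value, that of F1m-GCS, and the higher culture value, that of HT22 CON. Per coding length Il33 led the members in the hippocampus, at 49.1 RPKM in F1m-GCS and 58.5 in F1m-CON, ahead of Nfkbia with 18.6 and 19.8 and Ptgs2 with 19.3 and 17.9. Nfkbia and Ptgs2 changed order between the hippocampus libraries. These 3 genes supplied 98.6% of the members' reads in F1m-GCS and 98.7% in F1m-CON. Tissue and line differ in more than cell type, and the contrast was not tested.

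Of 9 known partners of the members, chosen after their values were seen, 4 had no read in either culture. Receptor genes Cxcr3, for Cxcl10, Ccr2, for Ccl2, and Cxcr2, for Cxcl1, had 0 reads in both HT22 libraries, as did Il1r2, the interleukin 1 decoy receptor. A count of 0 allows up to 0.228 CPM in HT22 SUP and 0.163 CPM in HT22 CON. Ccl19, a ligand of Ccr7, had 0 reads in HT22 SUP and 1 in HT22 CON. Il1rl1, the receptor of Il33, had 9235 reads in HT22 SUP and 16552 in HT22 CON, with a log2 ratio of -0.36 (-0.39 to -0.32). The same gene had 9 reads in F1m-GCS and 5 in F1m-CON, where its ligand gene was the most abundant member per length. Il1r1, the signalling receptor of Il1b, had 847 reads in HT22 SUP and 1529 in HT22 CON, with -0.37 (-0.49 to -0.25). Il1rap, the chain these receptors share, had 356 and 547 reads, with -0.13 (-0.33 to 0.06). Il1rn, the antagonist of interleukin 1, had 4 reads in HT22 SUP and 32 in HT22 CON, under the minimum of 50.

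The wider pathway was followed in 7 lists, read against a median log2 ratio of -0.05 for all measured genes in HT22, of which 58.1% were below 0. By the 1.5-fold rule 2.89% of all measured genes were lower and 5.13% higher. The counts of called genes per list are small, and nothing about the lists is read from them. Correcting for GC content and coding length, which sets that median to 0, moved the HT22 medians of all 7 lists without members upward. It gave -0.20 for NF-kappaB targets, -0.12 for NF-kappaB pathway genes, -0.12 for chemokines and -0.09 for pattern recognition. Cytokines then had -0.07, receptors -0.06 and prostaglandin and nitric oxide genes 0.03. The all-gene median itself rose from -0.05 to 0. Against it cytokines, at -0.10 without the correction, lay slightly farther below with the correction. Among 33 measured NF-kappaB target genes other than the members, 27 were below 0 with a median of -0.28, but 1 was lower by 1.5-fold and 0 were higher. That gene was Slfn2, with 21 reads in HT22 SUP and 63 in HT22 CON and a log2 ratio of -1.04 (-1.89 to -0.37). Slfn2 reached the read minimum only in HT22 CON, so the minimum favoured that direction. Of 36 other NF-kappaB pathway genes 32 were below 0, with a median of -0.20 and 1 lower, Traf5, a signalling adaptor, at -0.80 (-1.18 to -0.46). With the correction Rel, an NF-kappaB subunit gene, was higher at 0.66 (0.16 to 1.19), against 0.51 without it. The subunit genes Rela and Nfkb1, chosen after their values were seen, had -0.21 (-0.31 to -0.12) and -0.03 (-0.10 to 0.05). Pattern recognition genes had a median of -0.23, with 20 of 21 below 0 and 1 lower. This was Lbp, which encodes a binding protein for bacterial lipopolysaccharide, at -0.72 on 157 reads in HT22 SUP and 363 in HT22 CON.

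Cytokine genes other than members had 2 of 14 lower and 0 higher, with a median of -0.10. Beside this and the chemokine count below, 2.89% of all measured genes were lower and 5.13% higher. Il1a, the sister of Il1b, had 171 reads in HT22 SUP and 402 in HT22 CON and -0.74 (-1.02 to -0.49), but -0.56 (-0.83 to -0.30) and no call once corrected for coding length and GC content. Il18, another cytokine that inflammasomes activate, had 26 and 65 reads and -0.80 (-1.55 to -0.16). Only in HT22 CON did Il18 reach the read minimum, which favoured that direction. Il6 had -0.53 (-0.74 to -0.32) and did not reach 1.5-fold lower, while Lif had -0.25 and Csf1 0.06. These 3 were chosen after their values were seen. Among the 8 other chemokines measured 3 were lower, Ccl11 at -1.03 (-1.42 to -0.68), Ppbp at -0.83 (-1.27 to -0.43) and Ccl9 at -0.67 (-0.86 to -0.48). With the correction Ccl9 had -0.56 (-0.76 to -0.38) and was no longer called. Cx3cl1, a membrane-bound chemokine of neurons, was the 1 higher, with 122 reads in HT22 SUP and 99 in HT22 CON and 0.77 (0.39 to 1.18). That gene had 19378 reads in F1m-GCS and 19536 in F1m-CON.

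Of the 22 other receptor genes measured, 0 were lower and 0 were higher in HT22, beside 2.89% and 5.13% of all measured genes. Their median was -0.15, and Ccr7 and Gpr35 were the lower members of that list. Prostaglandin and nitric oxide genes other than members had a median of -0.06, with 1 of 28 lower. The lower gene was Pla2g2e, a secreted phospholipase, at -1.11 (-2.06 to -0.37) on 17 reads in HT22 SUP and 54 in HT22 CON. It reached the read minimum only in HT22 CON, so the minimum favoured that direction. The 1 higher was Ptgds, a prostaglandin D synthase abundant in brain coverings, with 164 reads in HT22 SUP and 67 in HT22 CON and 1.74 (1.36 to 2.21). Of genes around the members' reactions, Ptgs1, the constitutive cyclooxygenase, had -0.10 (-0.14 to -0.06) and Ptges, the inducible prostaglandin E synthase, 0.05 (-0.04 to 0.15). Gch1, which makes the cofactor of nitric oxide synthase, had -0.29 (-0.57 to -0.02), and Ass1, which recycles arginine, 0.46 (0.07 to 0.87). These 4 were chosen after their values were seen.

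In the hippocampus the medians of the 7 lists without members ran from -0.16 for chemokines to 0.08 for NF-kappaB pathway genes, beside -0.0042 for all measured genes. With the correction that of prostaglandin and nitric oxide genes had the other sign, 0.03 against -0.02. Lcn2, the siderophore-binding lipocalin, had 35 reads in F1m-GCS and 93 in F1m-CON and -1.31 (-1.96 to -0.78). Fas, a death receptor, was lower at -0.78 (-1.42 to -0.21) and Ifih1, a sensor of viral RNA, at -0.62 (-1.01 to -0.26). Higher were Traf1 at 0.64 (0.06 to 1.28) and Nostrin at 0.68 (0.25 to 1.16). Lcn2, and Fas with 38 reads in F1m-GCS and 69 in F1m-CON, reached the read minimum only in F1m-CON. Traf1, with 61 reads in F1m-GCS and 40 in F1m-CON, reached it only in F1m-GCS. For Lcn2, Fas and Traf1 the minimum thus favoured the direction seen. No cytokine, chemokine or receptor gene of the lists passed the rule there, among 8, 9 and 27 measured without the members. Of all measured genes in the hippocampus 0.904% were lower and 1.8% higher, so nothing is read from that absence. In HT22 SUP over CON the same genes had log2 ratios of -0.16 for Lcn2 and -0.34 for Fas.

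**Figure D4:**
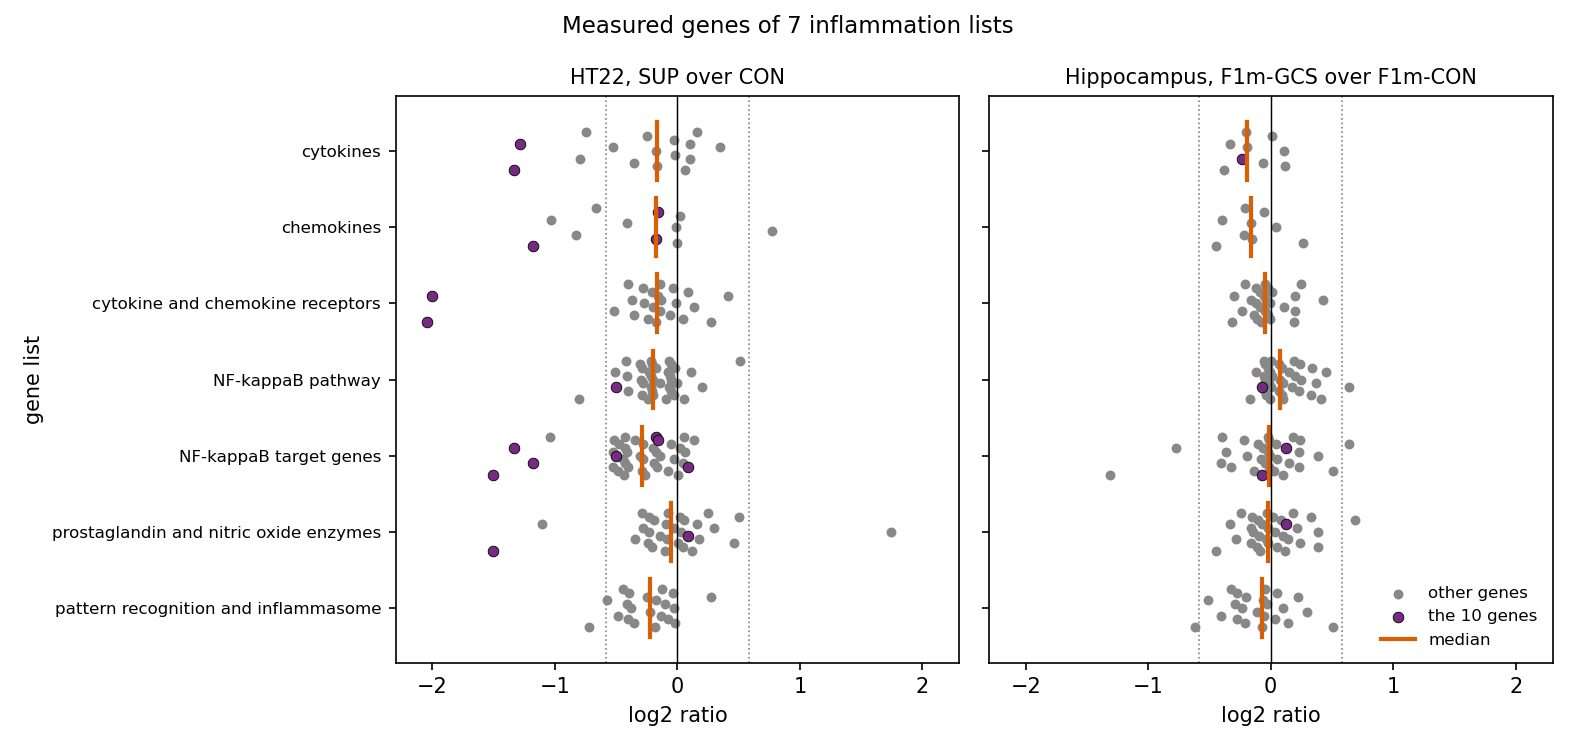
Log2 ratios of the measured genes in 7 inflammation lists, HT22 SUP over HT22 CON at left and F1m-GCS over F1m-CON at right, with members of the 10 in purple, other genes in grey, list medians as orange bars and dotted lines at 1.5-fold. In HT22 the medians lie left of 0, between -0.29 and -0.06 (nearer 0 with the length and GC correction, and 0.034 for prostaglandin and nitric oxide genes), while in the hippocampus they lie between -0.19 and 0.07.

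The genes whose pattern over the 4 libraries was most like the members' were searched among 10271 genes with at least 50 reads in HT22 CON. Likeness was the Euclidean distance between log2 CPM centred over the 4 libraries and the members' median pattern. That pattern holds the HT22 contrast in which the members were chosen, so genes lower in HT22 SUP were favoured in advance. The search is a description only. The nearest were Ccl9, Ankef1, Txnip, Zfp934 and Depdc7, at distances from 0.53 to 0.65 in log2 units. Ccl9 encodes a CC chemokine, and it had 96 reads in F1m-GCS, 111 in F1m-CON, 331 in HT22 SUP and 737 in HT22 CON. Txnip, the thioredoxin-interacting protein gene, had 677, 817, 1830 and 4341 reads in the same order. The members themselves lay from 0.34, for Cxcl10, to 8.30, for Ccl2, from their own median, so the pattern describes few of them closely.

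The authors' deposited table gives log2 fold changes of -1.14 for Nos2, -1.71 for Gpr35 and 0.07 for Ccl2 in HT22, the last on the other side of 0 from the ratio of the deposited counts, -0.16. For each of the 6 lower genes the deposited value lay nearer 0 than the ratio of the counts. Il33 at -0.95 and Cxcl10 at -0.87 did not reach 2-fold lower in the deposited values. Over 6973 HT22 genes with at least 1000 reads in both libraries together, 38.9% of the deposited fold changes lay within 0.05 of the ratio of the counts. In the hippocampus 100% of 9117 such genes did. The deposited false discovery rates are not used. The deposited counts hold no replicate, and what the HT22 rates were computed from is unknown.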

How the data were processed

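The count columns hold the authors' raw reads per gene, and the RPKM columns are the authors' levels for each kilobase of coding sequence and 1000000 uniquely mapped reads, per the file headers. The log2 fold changes, p-values and false discovery rates are the authors' deposited edgeR values. Per the series' design text, reads were trimmed with Trim Galore, aligned with TopHat2 to mm10 allowing 2 mismatches, kept from mapping quality 4 upward, and counted with HTSeq. CASAVA 1.8 is also named in the submitters' processing notes.

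Here libraries were scaled by TMM (edgeR 4.0.16, R 4.3.3; factors 0.996 to 1.00), and log2 ratios used a prior count of 2. Exact conditional (Clopper-Pearson) 95% intervals cover counting error only, as reads were counted without molecular identifiers. With 1 library per group no test was made. The functions were tested on simulated counts. Samples were grouped by source name (hippocampus) and by the choline concentration in the title (HT22).

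The members and lists were chosen with earlier results of these data known. Named genes were the members, up to 4 (HT22) or 2 (hippocampus) non-members per list that passed the rule, farthest from 0, markers, and the 5 nearest patterns. Others are marked. Python 3.11.15 and scipy 1.17.1 were used. Alternatives were other scalings, prior counts, minimums and fold rules, and a length and GC correction (GC for 21096 genes from GENCODE M21).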

Additional observations from a re-analysis of the deposited data

Results flagged for a closer look

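Cxcl1 differed in direction between the comparisons. Its log2 ratio was -0.18 (-0.25 to -0.11) for HT22 SUP over HT22 CON, on 2662 and 4210 reads, and 1.91 (0.37 to 8.68) for F1m-GCS over F1m-CON, on 9 and 1 reads. The difference of the log2 ratios was -2.08. It was not tested, and the hippocampus value rests on 10 reads in all.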

How the results depend on the processing

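No paired analysis was possible because each group held 1 library, and for the same reason no replicate could be left out. The count of 6 members lower in HT22 was the same under 9 of 10 alternatives. With at least 200 reads it was 2, of 6 measured, because Il1b, Cxcl10, Ccr7 and Gpr35 fall under that minimum. With no minimum 1 member, Cxcl1, was higher in the hippocampus, against 0. The log2 ratios of the members stayed inside their counting intervals, except after the length and GC correction, which gave -0.05 for Ccl2, -0.11 for Cxcl1 and 0.23 for Ptgs2 in HT22 and -0.04 for Ptgs2 in the hippocampus. With total counts the hippocampus interval of Ptgs2 reached -0.00059. A prior count of 10 left Traf1 and Ifih1 short of the rule in the hippocampus, and the length and GC correction left Il1a and Ccl9 short of it in HT22 and added Rel.

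Over all measured genes in HT22, 557 were higher and 314 lower. Minimums of 10 and 200 reads and no minimum gave 1146, 267 and 1285 higher, and 200 reads gave 131 lower. The 2-fold rule gave 241 higher and 57 lower, the whole interval beyond 1.5-fold gave 329 and 47, and 346 were higher when genes over 20-fold enriched in hippocampus were left out. In the hippocampus 241 were higher and 121 lower. The same minimums gave 417, 105 and 433 higher and 242, 12 and 263 lower. The 2-fold rule gave 30 and 23, the whole interval 36 and 13, the correction 146 higher, and 77 were lower without the tissue-enriched genes.

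List medians, here with the members included, changed sign as follows, and the cause was not tested. NF-kappaB pathway genes in the hippocampus had 0.07, and -0.00036 with 200 reads. Chemokines in HT22 had -0.18, and 0.0068 with no minimum. Cytokines in the hippocampus had -0.19, and 0.0094 with 10 reads and 0.014 with no minimum. Prostaglandin and nitric oxide genes had -0.06 in HT22, and 0.042 with no minimum and 0.034 after the correction. In the hippocampus they had -0.02, and 0.016 with 10 reads and 0.0081 after the correction.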

Other observations

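Measured chemokine genes that lie next to Ccl2 and Cxcl1 were mixed. Ccl7, Ccl8 and Cxcl5 stayed within 1.5-fold, as those members did, while Ccl11 and Ppbp were lower. Within 200 kb of Ccl2 on chromosome 11, Ccl7 had 5838 reads in HT22 SUP and 8061 in HT22 CON and a log2 ratio of 0.02 (-0.03 to 0.07). Ccl8 had 1295 and 1818 reads and -0.01 (-0.11 to 0.10). Between them Ccl11, an eosinophil attractant, had 84 and 243 reads and -1.03 (-1.42 to -0.68), beside -0.16 for Ccl2. Ccl12, in the same stretch, had 3 and 1 reads in the cultures and 9 reads in F1m-GCS and 24 in F1m-CON. Within 200 kb of Cxcl1 on chromosome 5, Cxcl5, another neutrophil attractant, had 11127 reads in HT22 SUP and 20710 in HT22 CON and -0.41 (-0.45 to -0.38). Ppbp had 67 and 168 reads and -0.83 (-1.27 to -0.43). Cxcl2 and Cxcl3, close relatives of Cxcl1, had 0 reads in all 4 libraries. Next to Cxcl10, the interferon-induced genes Cxcl9 and Cxcl11 had 0 reads in both cultures. These neighbours were chosen after their values were seen.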
